A study of Homo sapiens with 6 samples.

Results

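DNA replication and repair genes are 42 genes named by symbol, 29 whose products copy DNA and 13 whose products repair it, out of 23617 gene symbols in the MDA-MB-231 table. They were chosen by symbol from knowledge of the machinery and not by their values, although earlier results of these data were known when the list was made. RNA-seq of polyA RNA was made from 6 libraries of 2 human mammary cell lines, each left untreated or given 10 µM 5-aza-2'-deoxycytidine (decitabine, DAC) every day and collected at 72 h. MDA-MB-231, a breast cancer line that lacks the oestrogen and progesterone receptors, had 1 untreated and 1 DAC library, and the table gave a value for each library. HMLER, mammary epithelial cells that carry telomerase, the SV40 early region and an oncogenic RAS, had 2 untreated and 2 DAC libraries, and the table gave 1 merged value per condition for 1854 symbols. The HMLER cells therefore carry the SV40 large T antigen, which binds the RB family, in the untreated and the treated condition alike. Each library was a pool of RNA extractions, so the spread between cultures could not be measured and no difference below has a replicate check or a p-value. The cell line tag of the untreated MDA-MB-231 library reads MDA-MB-232, and its title, which reads MDA_MB_231, was used.

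Copying of the genome starts when the origin recognition complex, CDC6 and CDT1 load the ring-shaped MCM helicase onto DNA. CDC45 and the GINS complex then switch the helicase on, and DNA polymerases alpha, delta and epsilon copy the strands with the sliding clamp PCNA, its loader RFC and the single-strand binding complex RPA. FEN1 and LIG1 join the short pieces of the lagging strand. The Fanconi anaemia proteins open up crosslinked DNA, BRCA1, BRCA2 and their partners direct recombination, and CHEK1 slows the cycle when forks stall. Many of these genes are switched on together as cells enter S phase by E2F transcription factors. DAC is built into DNA during S phase and traps the DNA methyltransferases on it.

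A promoter feature that the choice by symbol did not use was frequent among these genes, though not present in all of them. RefSeq promoters running from 250 bases before to 50 bases after the transcription start (assembly GRCh38.p14) were matched for 36 of the 42 genes. The E2F letters TTTCCCGC, TTTCGCGC, TTTGCCGC and TTTGGCGC, searched on both strands, were present in 20 of those 36 genes (55.6%), against 3.99% of the 27305 symbols in the promoter table. Among symbols at 1 FPKM or more, of which only 77.3% had a promoter in the table, so that this comparison is incomplete, 6.80% held them. The share was 26.5% in other replication factors, 36.4% in S-phase regulators and nucleotide supply genes and 50% in the 4 matched mismatch repair genes outside the list. It was lower in the remaining sets of other pathway genes. Other Fanconi anaemia genes had 7.69%, and other recombination genes and checkpoint genes had 12.5% each. End joining genes had 20%, and base excision and nucleotide excision genes had 8.33% each. Within the list, the E2F letters were present in 15 of 24 replication genes (62.5%) and in 5 of 12 repair genes (41.7%). The letters CCAAT, also on both strands, were present in 58.3% of the 36 genes in 39.7% of all symbols and in 43.9% of those matched at 1 FPKM or more. The ratio of observed to expected CpG had a median of 0.940 in the 36 genes, 0.634 over all symbols, 0.876 in those matched at 1 FPKM or more and 0.978 in other replication factors. A match describes letters in a window and does not show that a factor binds there.

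Matches in 8 genes are shown on the coding strand, 5′ to 3′, because the genes belong to the MCM helicase or lie towards the ends of the range of change. Capitals mark the E2F letters, and in MCM2 the letters read the same on both strands so that a pair of matches overlaps. In MCM7 the last base of the E2F letters is also the start of a CCAAT.
MCM2, chr3:127598402-127598431, plus strand: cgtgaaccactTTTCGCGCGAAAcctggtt
MCM3, chr6:52284728-52284757, minus strand: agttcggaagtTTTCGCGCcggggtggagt
MCM7, chr7:100101388-100101417, minus strand: ggggggcgacgTTTCGCGCcaatttcggtt
GINS1, chr20:25407667-25407696, plus strand: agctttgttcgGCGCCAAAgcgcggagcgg
POLA1, chrX:24693770-24693799, plus strand: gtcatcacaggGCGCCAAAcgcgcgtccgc
LIG1, chr19:48170440-48170469, minus strand: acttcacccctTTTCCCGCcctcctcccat
RFC3, chr13:33818083-33818112, plus strand: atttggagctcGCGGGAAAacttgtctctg
EXO1, chr1:241848197-241848226, plus strand: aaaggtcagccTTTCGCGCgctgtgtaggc

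MCM6, with the most matches of the 36 genes, and BRCA1, with the highest ratio after DAC, are shown over the 250 bases before the start. Capitals mark the E2F letters in MCM6, which carries 2 overlapping pairs, and CCAAT in BRCA1, whose window holds no E2F letters.
MCM6, chr2:135876444-135876693, minus strand: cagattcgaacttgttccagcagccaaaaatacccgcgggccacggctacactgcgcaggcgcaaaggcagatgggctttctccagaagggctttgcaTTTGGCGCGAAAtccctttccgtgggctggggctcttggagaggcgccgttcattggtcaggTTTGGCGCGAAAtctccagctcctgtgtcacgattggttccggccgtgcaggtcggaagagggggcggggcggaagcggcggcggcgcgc
BRCA1, chr17:43125365-43125614, minus strand: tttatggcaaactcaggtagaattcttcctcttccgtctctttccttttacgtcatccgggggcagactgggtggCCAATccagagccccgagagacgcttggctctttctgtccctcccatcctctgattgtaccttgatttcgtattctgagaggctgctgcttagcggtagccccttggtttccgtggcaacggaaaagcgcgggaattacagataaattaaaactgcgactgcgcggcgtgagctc

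All 42 genes were expressed at 1 FPKM or more in MDA-MB-231, and 41 of them stayed within 2-fold between the libraries. FPKM, the number of fragments on a transcript scaled to its length and to the size of the library, was summed over the transcripts of a symbol, and a gene was called when the DAC and untreated sums differed by more than 2-fold with at least 1 FPKM in either library. BRCA1 was called higher, where 10.8% of the 12525 symbols at 1 FPKM or more were called higher. No gene of the list was called lower, where 4.82% of those symbols were. At 5 FPKM or more in either library, a level that 41 of the 42 genes reached, 4.95% of 9398 symbols were called higher and 4.82% lower.

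The list as a whole had a median close to that of all genes. On the scale of log2(FPKM + 1), DAC over untreated, the median change of the 42 genes was −0.07, with quartiles of −0.24 and 0.12. The 9398 symbols at 5 FPKM or more had a median of −0.15 and quartiles of −0.42 and 0.15. Over the 11292 symbols that reached 1 FPKM in each library, the median ratio was 0.912 (log2 −0.13), and 25 of the 42 genes lay above that ratio and 17 below it. Dividing the DAC values by that ratio turned the log2 change from below to above 0 in 8 genes, ORC1, CDC6, MCM3, POLD1, RFC5, FANCD2, XRCC3 and BLM, and in no other of the 42. Replication genes had a median change of −0.13, with 18 of 29 below 0 and 13 below the ratio of all genes. Repair genes had a median of −0.02, with 7 of 13 below 0 and 4 below the ratio of all genes. Under a looser limit of 1.5-fold, MCM5, GINS1 and POLA1 were lower and BRCA1 alone was higher, where 15.5% of symbols at 1 FPKM or more were lower and 17% were higher (16.6% and 9.62% at 5 FPKM or more).

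**Figure D1:**
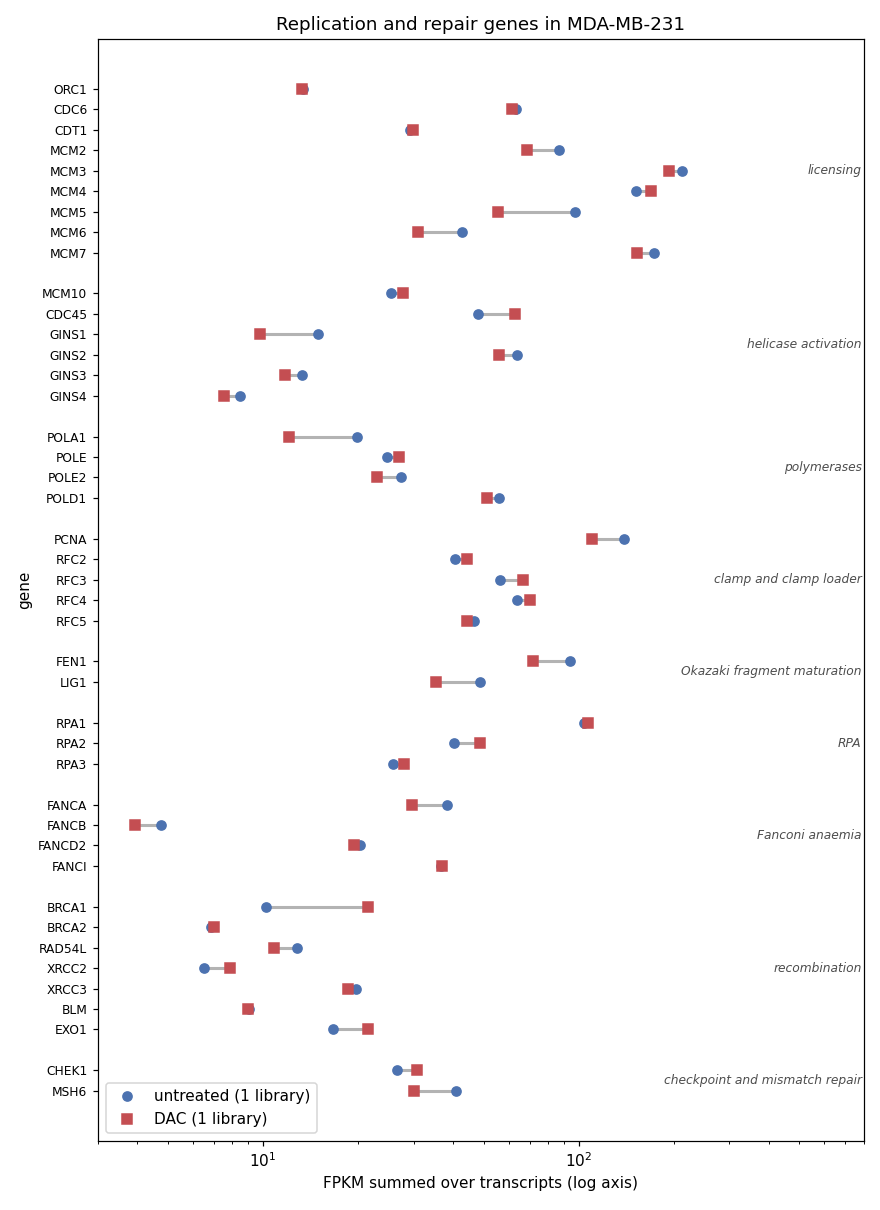
Level of each of the 42 genes in MDA-MB-231, as FPKM summed over transcripts on a log axis, in the untreated library (circles) and the DAC library (squares), 1 library each, ordered by role. Levels ran from 4.74 FPKM for FANCB to 212.0 FPKM for MCM3 without treatment, and the longest line joining 2 points belongs to BRCA1.

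The reads behind each gene were estimated from the files. The steps between low values put 1 read on a transcript of 1 kb at 0.0232 FPKM in the untreated and 0.0233 FPKM in the DAC library. With these steps 99.6% of 823 and 100% of 883 low values fell within 0.1 read of a whole number. The steps were chosen to make that share largest, so the 20% of a step fixed in advance does not test them. The 42 genes then rested on 566 to 29888 estimated fragments without treatment (median 3660) and on 467 to 33170 after DAC. Counting intervals given below are 95% intervals on these reads for genes with 1 transcript, and they cover counting error only. MDA-MB-231 also differed in its own markers between the libraries: the 6 mesenchymal markers summed to 3351 FPKM without treatment and 1411 FPKM after DAC, a difference carried by VIM (3066 and 1134 FPKM). CD44 and ZEB1 were also lower, while FN1 (39.8 and 111.3 FPKM), SPARC (2.09 and 11.3 FPKM) and CDH2 (0.0902 and 1.06 FPKM) were higher. The 8 epithelial markers summed to 337.2 and 330.4 FPKM, with KRT19 at 0.518 and 13.5 FPKM and with CDH1, ESR1 and PGR at 0 in the untreated library. The part of these shifts in the results below was not tested. None of 4 blood cell and 3 endothelial markers reached 1 FPKM in either library.

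Among the licensing genes, ORC1, CDC6 and CDT1 differed little between the libraries while the helicase subunits spread apart. ORC1, a subunit of the origin recognition complex, was at 13.4 FPKM untreated and 13.3 FPKM after DAC. CDC6, the loading ATPase, was at 63.4 and 61.6 FPKM, and CDT1, which brings the helicase to the origin, was at 29.3 and 29.96 FPKM. These 3 genes had ratios of 0.997, 0.972 and 1.02, a narrower range than that of the 6 subunits of the helicase. Of the other subunits of the origin recognition complex, which are not in the list, ORC3 was nearest to ORC1, with a ratio of 0.949. The rest lay further from ORC1: ORC2 had a ratio of 1.22, ORC4 0.796, ORC5 0.625 and ORC6 0.756.

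The helicase subunits are assembled in equal numbers in the ring, yet their RNA levels differed and shifted unequally. MCM5 (chromosome 22: 35796127-35821424 in hg19, plus strand) had the lowest ratio of the 42 genes, at 97.8 FPKM untreated and 55.7 FPKM after DAC (ratio 0.570, counting interval 0.551 to 0.589). MCM6 was at 42.7 and 31.1 FPKM (ratio 0.728, counting interval 0.701 to 0.756), and MCM2 at 86.9 and 68.5 FPKM (ratio 0.788). The other helicase subunits were nearer to the median of all genes. MCM3 was at 212.0 and 193.7 FPKM (ratio 0.914), MCM7 at 173.9 and 153.7 FPKM (ratio 0.884), and MCM4 at 152.0 and 169.6 FPKM (ratio 1.12). MCM4 was the only one of the 6 above its untreated level, or MCM4 and MCM3 relative to the median ratio of all genes, and MCM4 passed MCM7 in the order of levels. The 6 subunits summed to 765.3 FPKM untreated and 672.3 FPKM after DAC (ratio 0.878), while the highest subunit exceeded the lowest 4.97-fold untreated and 6.23-fold after DAC. Of all annotated exon bases of MCM7, 7.90% overlap AP4M1 on the opposite strand, which was at 10.6 and 26.7 FPKM. Such shares, here and below, are of every annotated exon of a gene and were not worked out for the transcripts measured. The counts of MCM7 may be less certain for this overlap, since the strand setting of the counting is not given in the sources used here.

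Helicase activation held both a gene with one of the higher ratios and one with a low ratio. CDC45, which binds the MCM ring as part of the active helicase, was at 47.9 FPKM untreated and 63.0 FPKM after DAC (ratio 1.32). MCM10, which helps the active helicase to leave the origin, was at 25.5 and 27.8 FPKM. GINS1 (chromosome 20: 25371644-25433336 in hg19, plus strand) was at 14.9 and 9.81 FPKM (ratio 0.656, counting interval 0.611 to 0.704). The other GINS subunits had ratios close to each other, 0.876 for GINS2, 0.883 for GINS3 and 0.886 for GINS4. GINS1 stood below its 3 partners, and its counting interval did not reach them. The 4 subunits together were at 100.5 and 85.0 FPKM.

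The catalytic subunit of polymerase alpha differed from those of delta and epsilon. POLA1 (chromosome X: 24711990-25015103 in hg19, plus strand), which starts each new strand with primase, was at 19.9 FPKM untreated and 12.1 FPKM after DAC (ratio 0.608, counting interval 0.579 to 0.638). POLD1, the catalytic subunit of the lagging-strand polymerase delta, was at 56.1 and 51.3 FPKM (ratio 0.915). POLE, the catalytic subunit of the leading-strand polymerase epsilon, was at 24.6 and 26.9 FPKM (ratio 1.09). The accessory epsilon subunit POLE2 was at 27.4 and 23.0 FPKM (ratio 0.840). Partners of POLA1 in the same complex did not share its ratio: POLA2 was at 16.2 and 15.98 FPKM, PRIM1 at 23.3 and 21.7 FPKM, and PRIM2 at 41.3 and 37.6 FPKM.

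The clamp was lower, and of the 4 small loader subunits 3 were higher and RFC5 was lower, though above the median ratio of all genes. PCNA, the ring that tethers the polymerases, was at 139.4 FPKM untreated and 109.97 FPKM after DAC (ratio 0.789). The small loader subunits RFC2, RFC3, RFC4 and RFC5 had ratios of 1.09, 1.19, 1.10 and 0.950. The RFC4 ratio is less certain, as the deposited bounds of its largest transcript, NM_002916, were 0 to 129.3 FPKM untreated and 0 to 127.6 FPKM after DAC. RFC5 shares 5.72% of its annotated exon bases with WSB2 on the opposite strand (82.5 and 54.5 FPKM), which may make its ratio less certain. The 4 small subunits together were at 207.2 and 225.7 FPKM, and the highest of the 4 exceeded the lowest 1.57-fold untreated and 1.59-fold after DAC. The lowest was RFC2 untreated (40.5 FPKM) and RFC5 after DAC (44.2 FPKM). The similar range therefore does not mean that each subunit kept its proportion. The large loader subunit RFC1, not a gene of the list, was at 22.8 and 19.96 FPKM (ratio 0.875), below the median ratio of all genes and apart from the small subunits. PCNA shares its locus with the antisense transcript PCNA-AS1 (78.4 and 73.0 FPKM), and any exon bases the pair shares were not measured, since the annotation used here has no entry of that name.

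Both enzymes that finish Okazaki fragments were lower. FEN1, the flap nuclease, was at 93.8 FPKM untreated and 71.7 FPKM after DAC (ratio 0.765, counting interval 0.740 to 0.790). LIG1, the ligase that seals the nicks, was at 48.9 and 35.3 FPKM (ratio 0.723, counting interval 0.695 to 0.752). The RPA complex, which covers single-stranded DNA, had no subunit below its untreated level. RPA1 was at 103.8 and 107.4 FPKM, RPA2 at 40.2 and 48.7 FPKM, and RPA3 at 25.9 and 28.0 FPKM. The largest of the 3 ratios was that of RPA2, 1.21 (counting interval 1.15 to 1.28).

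**Figure D2:**
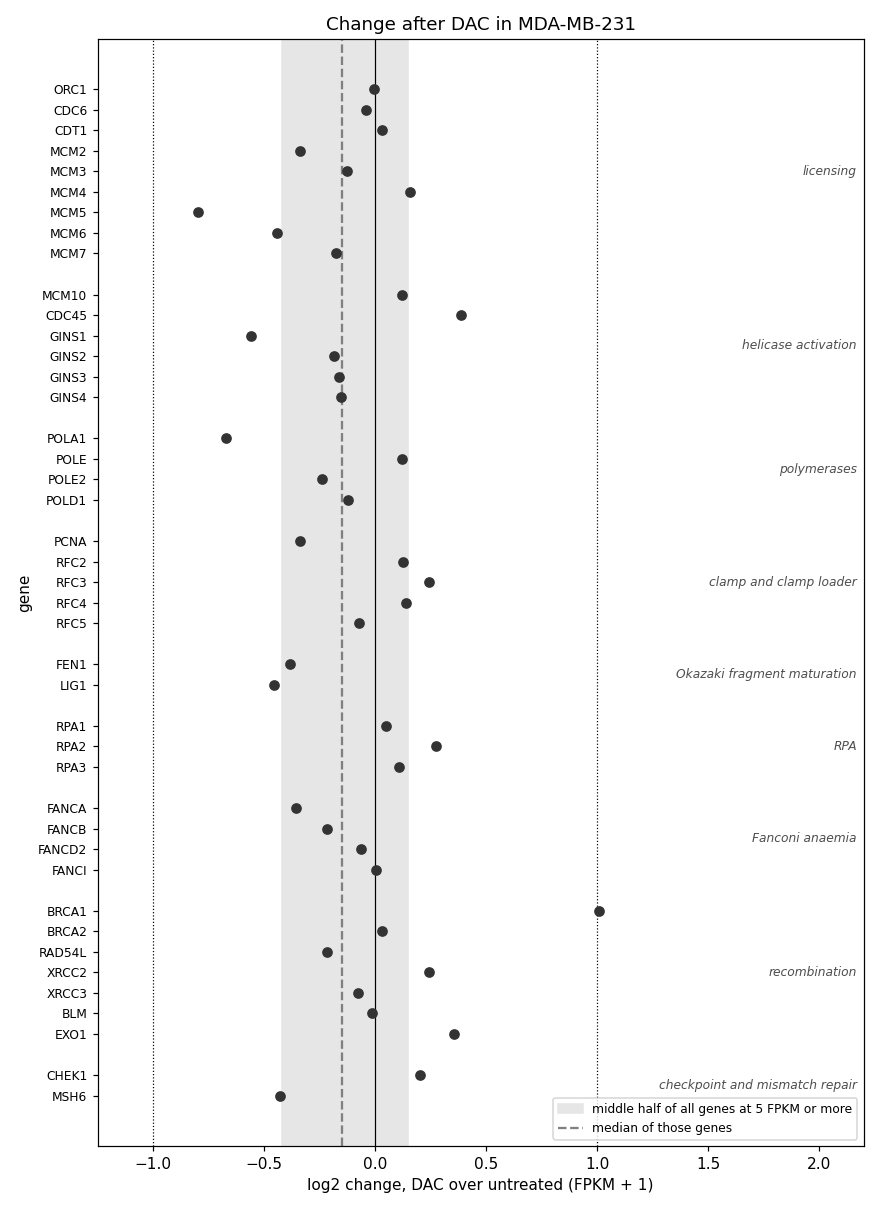
Change of each gene on the scale of log2(FPKM + 1), DAC library over untreated library, ordered by role, with the quartile range (band) and median (dashed line) of 9398 symbols at 5 FPKM or more and dotted lines at 2-fold. BRCA1 lies on the line at 2-fold higher, MCM5 is the lowest point at −0.80, and the RPA and RFC subunits lie to the right of FEN1, LIG1 and PCNA.

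The Fanconi anaemia genes had ratios from 0.774 to 1.004. FANCA and FANCB, subunits of the core ligase complex, were at 38.4 and 29.7 FPKM (ratio 0.774) and at 4.74 and 3.93 FPKM (ratio 0.829). FANCD2 and FANCI, the paired proteins that the core complex marks with ubiquitin, were at 20.3 and 19.4 FPKM and at 36.8 and 36.9 FPKM. The substrate pair thus had ratios of 0.955 and 1.004, above these 2 core subunits. Core subunits outside the list were spread on both sides, from FANCC with a ratio of 0.739 and FANCG with 0.832, through FANCE with 1.01, to FANCL, the ligase itself, with 1.58 (13.7 and 21.8 FPKM) and FANCF with 1.68 (0.892 and 1.498 FPKM). FANCA shares 19.6% of its annotated exon bases with ZNF276 on the opposite strand (7.62 and 5.30 FPKM).

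BRCA1 was the one gene past 2-fold. BRCA1 (chromosome 17: 41196312-41322262 in hg19, minus strand), a ubiquitin ligase subunit that directs the resection of broken ends, was at 10.2 FPKM untreated and 21.6 FPKM after DAC (ratio 2.11, log2 change 1.01). That change was larger than those of 93.2% of symbols at 1 FPKM or more. In estimated fragments BRCA1 had 2667 and 5642, a ratio of 2.12. Its close partners did not show such a ratio: BARD1, with which BRCA1 forms the ligase, was at 9.43 and 6.04 FPKM (ratio 0.640), PALB2 at 9.82 and 7.11 FPKM (ratio 0.724), and BRCA2, a mediator of strand exchange, at 6.83 and 6.99 FPKM (ratio 1.02).

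The other recombination genes stayed between ratios of 0.848 and 1.29. EXO1, the nuclease of end resection and mismatch repair, was at 16.6 FPKM untreated and 21.5 FPKM after DAC (ratio 1.29), and XRCC2, a strand exchange factor, at 6.51 and 7.89 FPKM (ratio 1.21, counting interval 1.10 to 1.33). BLM, the helicase lost in Bloom syndrome, was at 9.05 and 8.95 FPKM, and XRCC3, another strand exchange factor, at 19.7 and 18.6 FPKM. RAD54L, a translocase of the strand exchange step, was at 12.8 and 10.9 FPKM (ratio 0.848). Of the annotated exon bases of XRCC3, 76.7% overlap KLC1 (57.1 and 39.2 FPKM) on the opposite strand. For RAD54L, 19.9% overlap LRRC41 (21.6 and 24.2 FPKM), also on the opposite strand. The ratios of XRCC3 and RAD54L may be uncertain for this, although the share within the transcripts measured was not worked out.

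Of the remaining repair genes, the checkpoint kinase was slightly higher in its sum over transcripts and the mismatch gene lower. CHEK1 was at 26.6 FPKM untreated and 30.7 FPKM after DAC (ratio 1.15). Its largest transcript, NM_001274, was at 17.7 and 15.5 FPKM, while NM_001114121 was at 6.73 and 8.46 FPKM. The noncoding NR_045205 was at 1.999 and 6.83 FPKM. The log2 change of CHEK1 was 0.20 for the sum and −0.18 for the largest transcript. MSH6, which recognises mismatched bases, was at 40.9 and 30.1 FPKM (ratio 0.736, counting interval 0.710 to 0.762). MSH6 overlaps FBXO11 on the opposite strand over 22.7% of its annotated exon bases (21.2 and 13.9 FPKM).

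The bounds that Cuffdiff deposited with each transcript were wider than the counting intervals, and under them no transcript of the list stood apart. The 42 genes had 83 transcripts in the table, 67 of them at 1 FPKM or more, and the untreated and DAC bounds overlapped for all 67, where the bounds of 1.6% of 17744 transcripts did not overlap. For MCM5 the untreated bounds were 52.7 to 142.8 FPKM and the DAC bounds 30.5 to 80.9 FPKM. For POLA1 they were 10.8 to 28.9 and 6.46 to 17.7 FPKM. The differences of MCM5 and POLA1 were thus outside counting error, while their deposited bounds overlapped. Overlap of separate bounds is not a test of a difference, and the level of these bounds is not given.

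**Figure D3:**
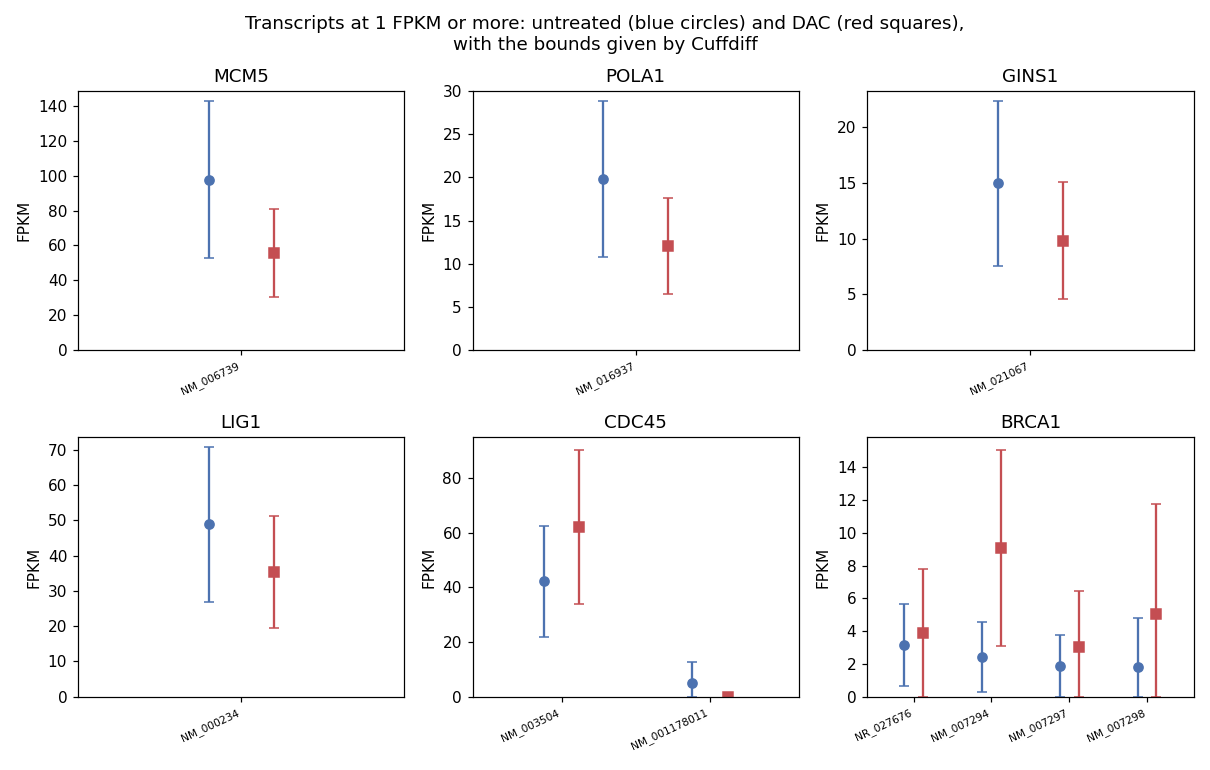
FPKM of each transcript at 1 FPKM or more for 6 genes, untreated (circles) and DAC (squares), with bars for the lower and upper bounds in the deposited table, on a linear axis from 0 with its own range in each panel. Bars of the paired points overlap in every panel, including BRCA1 NM_007294, whose untreated bar ends at 4.53 FPKM and whose DAC bar begins at 3.09 FPKM.

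Most of the BRCA1 difference lay in NM_007294 and NM_007298. NM_007294, the full-length coding transcript, was at 2.40 FPKM untreated (bounds 0.266 to 4.53) and 9.08 FPKM after DAC (bounds 3.09 to 15.1), so that its share of the BRCA1 sum was 23.4% and then 42.1%. NM_007298 was at 1.83 and 5.02 FPKM, NM_007297 at 1.87 and 3.001 FPKM, and the noncoding NR_027676, the largest without treatment, at 3.15 and 3.90 FPKM. All 4 were higher after DAC, whereas NM_007299, a minor transcript, was at 0.726 and 0.140 FPKM.

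Of the 67 transcripts, 5 exceeded 2-fold upwards and 5 downwards (14.9% in all), where 23.9% of 17744 transcripts passed that limit. They came from 8 genes, and the sums of 7 of those genes stayed within 2-fold. In CDC45 the sum hid opposite shifts, with NM_003504 at 42.2 and 62.2 FPKM and NM_001178011 at 5.17 FPKM and then 0. In XRCC3 NM_001100119 went from 49.9% to 21.6% of the sum (9.82 and 4.02 FPKM) while NM_001100118 was at 9.15 and 12.3 FPKM. In CHEK1 the noncoding NR_045205 was at 1.999 and 6.83 FPKM, or 7.51% and 22.2% of the sum. In PCNA the lesser transcript NM_002592 was at 2.88 and 12.3 FPKM, or 2.07% and 11.2%. XRCC3 NM_005432 was at 0.728 and 2.33 FPKM, and the remaining shifts, in GINS3, POLE2 and POLD1, concerned transcripts below 2 FPKM. Assignment of reads among such overlapping transcripts is an estimate, and the bounds of all of these overlapped.

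**Figure D4:**
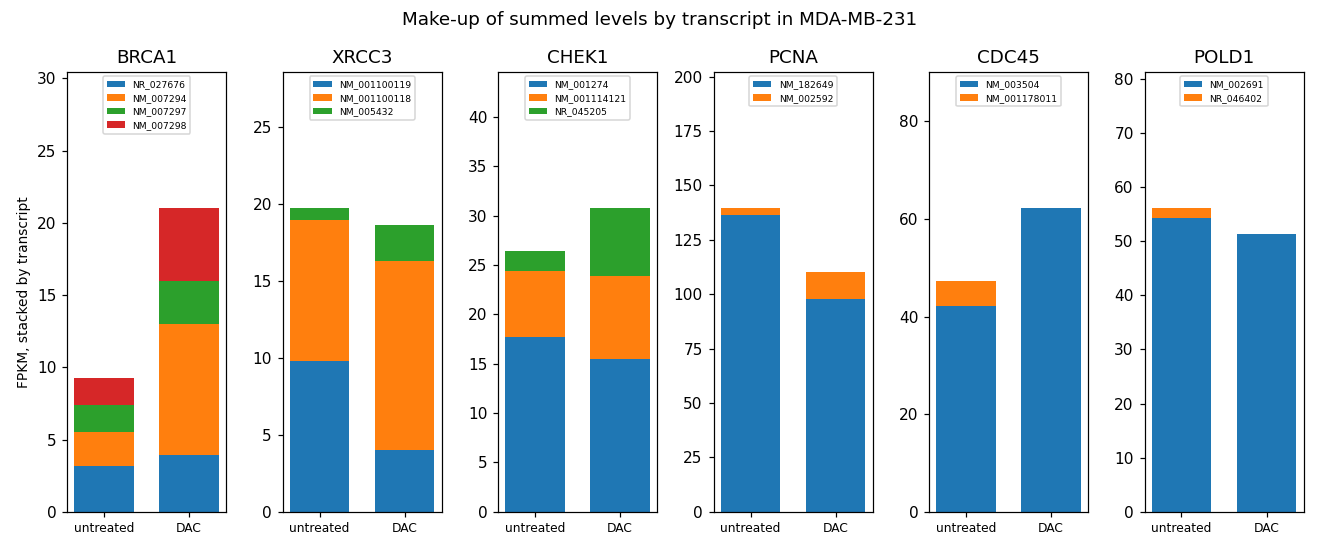
FPKM of 6 genes stacked by transcript (those at 1 FPKM or more in either library), untreated and DAC, bars from 0 and each panel on its own axis. NM_007294 and NM_007298 make up most of the difference between the BRCA1 bars, and the make-up of XRCC3 and CHEK1 shifts although their totals differ little.

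Genes with and without the E2F letters overlapped in their changes. The 20 genes with the letters had a median log2 change of −0.18, from −0.68 to 0.35, with 15 below 0 and 12 below the median ratio of all genes. The 16 genes without them had a median of 0.01, from −0.38 to 1.01, with 8 below 0 and 3 below that ratio. POLA1, shown above with its match, was the lowest of the former and EXO1 the highest, while BRCA1 was the highest of the latter. MCM4, MCM5, GINS4, RPA2, RPA3 and FANCI had no matched promoter and are in neither group. Their changes ran from −0.80 for MCM5, the lowest of the whole list, to 0.27 for RPA2.

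In HMLER, 2 of the 42 genes (4.76%) were in the table, which holds only transcripts more than 2-fold higher after DAC that passed the authors' limits, where 10.9% of the 12525 symbols at 1 FPKM or more in MDA-MB-231 were listed, 9.17% of those at 5 FPKM or more and 7.85% of all 23617. Both entries were transcripts that were minor in MDA-MB-231, and their shares in HMLER are not known. POLD1 NR_046402, a noncoding transcript, was at 1.75 FPKM untreated and 5.43 FPKM after DAC (3.11-fold). MCM10 NM_182751 was at 1.81 and 5.09 FPKM (2.82-fold). In MDA-MB-231 these transcripts made up 3.15% and 18.6% of the untreated sums of their genes, and the larger transcript of each gene was not listed in HMLER. BRCA1 was not listed in HMLER either. Since the HMLER table leaves out what did not pass its limits, the level of the other 40 genes and any that were lower in that line are not analysed here.

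Other genes of the same pathways, 140 in all and none of them counted above, were read in the same way in MDA-MB-231. NEIL1, a glycosylase of base excision repair, was past 2-fold, at 1.16 FPKM untreated and 2.35 FPKM after DAC, and none was past 2-fold lower. Their median log2 change was −0.11, and at 1.5-fold 10 were higher and 15 lower. The 40 other replication factors had a median of −0.13, the same as the 29 replication genes of the list. Here 2 were higher at 1.5-fold and 4 lower.

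Within these 40 factors the subunits of polymerases delta and epsilon lay far apart. The lowest ratio of the 40 was that of MTBP, a factor in origin firing, at 17.3 and 8.80 FPKM (ratio 0.510). POLD2, a structural subunit of delta that binds POLD1, was at 134.3 FPKM untreated and 71.9 FPKM after DAC (ratio 0.535). POLD4, the smallest subunit of delta, was at 14.5 and 28.8 FPKM (ratio 1.99), while POLD3 was at 18.9 and 20.6 FPKM. POLE4, a histone-fold subunit of epsilon, was at 129.2 and 232.5 FPKM (ratio 1.80), and its partner POLE3 at 103.2 and 92.7 FPKM. POLE4 was also listed in HMLER, at 90.4 and 194.6 FPKM. DBF4, the activator of the origin-firing kinase CDC7, was at 10.6 and 6.08 FPKM, and CDC7 itself at 12.4 and 16.6 FPKM.

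Among the repair lists, end joining had the lowest median. Its 7 genes had a median log2 change of −0.46. On the same scale the median was −0.15 over symbols at 5 FPKM or more and −0.08 over those at 1 FPKM or more. XRCC6 and XRCC5, the Ku subunits that hold broken ends, were at 253.7 and 172.5 FPKM and at 211.7 and 153.7 FPKM, and LIG4, the ligase of this pathway, at 9.80 and 5.95 FPKM. NHEJ1, a scaffold that bridges the ends, differed from them at 9.28 and 14.7 FPKM. The 13 other Fanconi genes (median −0.10, with 3 higher and 1 lower at 1.5-fold), the 21 other recombination genes (−0.10), the 6 mismatch genes (0.02), the 10 checkpoint genes (0.03), the 14 base excision genes (−0.05) and the 13 nucleotide excision genes (−0.16) lay nearer to 0. DDB2, the ultraviolet damage sensor, was at 9.20 and 17.4 FPKM, and XPC, which works with it, at 7.98 and 4.53 FPKM.

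The 16 S-phase regulators and nucleotide supply genes had a median of −0.15, with 4 lower and 1 higher at 1.5-fold. Those lower were CCNA2, the S-phase cyclin (55.9 and 30.2 FPKM), MKI67, a proliferation marker (96.5 and 59.8 FPKM), TYMS, thymidylate synthase (359.5 and 237.8 FPKM), and RRM2, a subunit of ribonucleotide reductase (121.7 and 80.5 FPKM). The gene that was higher was E2F2, an activating E2F factor, at 2.64 and 4.56 FPKM, and its relative E2F1, at 36.6 and 48.9 FPKM, stayed within 1.5-fold. Fewer cells in S phase and less RNA per cell cannot be told apart in bulk RNA, and whether either moved with the ratios of the replication genes was not tested.

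**Figure D5:**
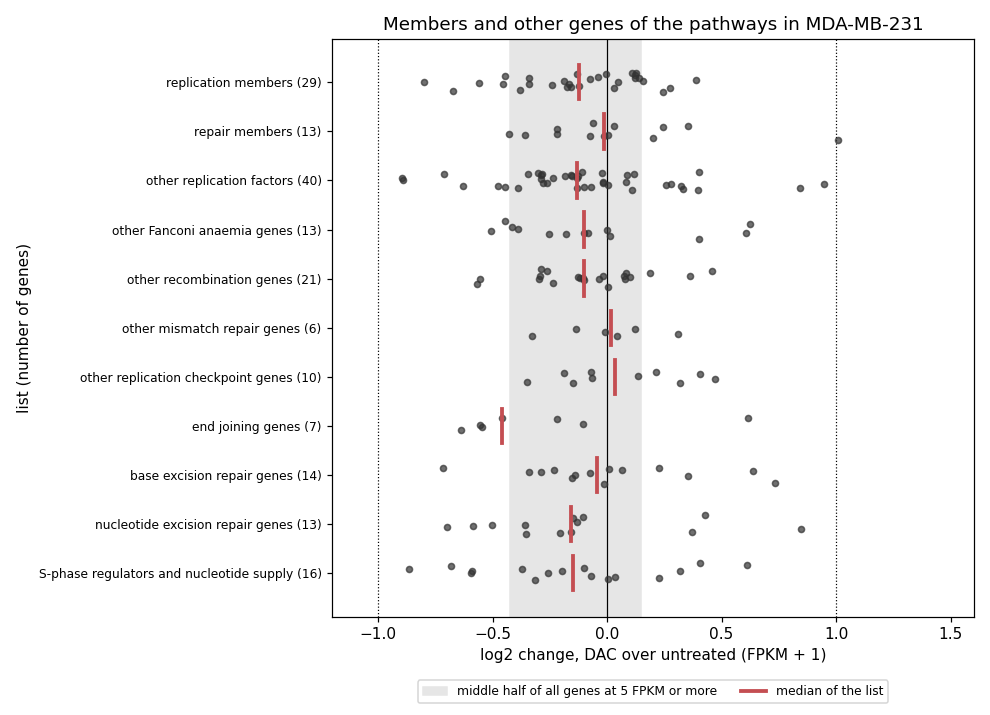
Change of every gene on the scale of log2(FPKM + 1), DAC over untreated in MDA-MB-231, for the 29 replication and 13 repair genes and for the lists of 140 other genes, with list medians (bars), the quartile range of 9398 symbols at 5 FPKM or more (band) and dotted lines at 2-fold. Medians of 10 of the 11 lists lie inside the band, and the end joining median of −0.46 lies just below it.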

How the data were processed

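PolyA RNA of both cell lines, with and without DAC, was prepared with the Illumina TruSeq RNA kit. Per the labels and the study's methods, reads were aligned to hg19 with TopHat2 and Cuffdiff gave the values, and tool versions, library scaling, the level of the bounds and the strand setting are not given in the sources used here. The authors deposited FPKM per RefSeq transcript, with lower and upper FPKM bounds for MDA-MB-231 (43497 transcripts) and merged values for HMLER (2009 transcripts, each above 2-fold higher after DAC). Deposited columns of fold changes, p-values and q-values hold the study's own comparisons and were not used.

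FPKM was summed over the transcripts of a symbol. Changes were log2((DAC + 1)/(untreated + 1)), with a pseudocount of 1 FPKM, and calls used the plain ratio (2-fold, 1 FPKM in either library). With 1 library per condition no test was made. By rule, values were given for members past 2-fold, with non-overlapping bounds, in the HMLER table, or with the lowest change, highest change or highest level of their role, and for other pathway genes past 2-fold, at most 3 each way per list. All 42 members are given, and the other pathway genes named beyond NEIL1 (partners of members, genes past 1.5-fold and genes in the HMLER table) were picked after their values were seen. The members and all lists were chosen with earlier results of these data known. Reads were estimated from the FPKM step of 1 read with 240 bases taken off each transcript, and intervals were exact binomial. Gene positions and exon overlaps came from GENCODE v44 lifted to GRCh37 (hg19), and promoters from RefSeq on GRCh38.p14. Overlap shares are of all exons of a gene in that annotation, not of the RefSeq transcripts measured. Scripts (Python 3.11.15, pandas 2.3.3, numpy 2.4.6, scipy 1.17.1, matplotlib 3.10.9) were tested on simulated data. Alternatives were another pseudocount, filter, threshold or scaling, the largest transcript, and the deposited bounds.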

Additional observations from a re-analysis of the deposited data

Results flagged for a closer look

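Transcripts of 2 replication genes, minor ones in MDA-MB-231, were higher after DAC in HMLER and lower in MDA-MB-231. POLD1 NR_046402 was 3.11-fold higher in HMLER, and in MDA-MB-231 it was at 1.77 FPKM untreated and 0.000815 FPKM after DAC, a ratio of 0.000461. The DAC value there is less than 1 read, so the ratio gives no size for the difference. MCM10 NM_182751 was 2.82-fold higher in HMLER, and in MDA-MB-231 it was at 4.73 and 4.13 FPKM, a ratio of 0.873. The differences between the lines were not tested, since MDA-MB-231 had 1 library per condition and HMLER merged values. The HMLER table holds only transcripts that were higher, so the opposite direction could not appear there. In MDA-MB-231 the bounds of both transcripts overlapped and began at 0 in each library.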

How the results depend on the processing

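No paired analysis was possible because MDA-MB-231 had 1 library per condition and the HMLER columns carry no replicate. BRCA1 was the 1 gene of the 42 above 2-fold under another pseudocount, filter, scaling or the largest transcript. No gene was lower under these. Several of these settings could not have lost the BRCA1 call. The log2 pseudocount does not enter a call, the filters lie below the level of BRCA1, and the scaling raised every ratio. With a pseudocount of 1 in the ratio BRCA1 passed only narrowly (log2 change 1.0078). With the largest transcript in place of the sum, the log2 change took the other sign in 3 genes, ORC1, XRCC3 and CHEK1. With the deposited bounds of the largest transcript, 0 of the 42 were higher. At 1.5-fold, 3 of the 42 were lower, all 3 of them replication genes, and of the 140 other genes 10 were higher and 15 lower.

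Division of the DAC values by the median ratio of all genes moved the median log2 change to 0.0597 for the 42 genes, 0.0048 for the replication genes, 0.1042 for the repair genes and 0.0031 for the other genes, of which 3 were then higher. Over all symbols it moved the split of higher and lower calls from 1350 and 604 to 1519 and 446, and the largest transcript gave 1428 and 726. Among the other genes, none was higher at 5 FPKM or more (0 of 128) or with the pseudocount in the ratio (0), and with the largest transcript 4 were higher and 2 lower. Each of the 42 sums rested on 467 or more estimated fragments per library, and all share the limit of 1 library per condition.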

Other observations

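Of the 140 other pathway genes, 14 (10%) were in the HMLER table as more than 2-fold higher after DAC, where 10.9% of symbols at 1 FPKM or more in MDA-MB-231 were. RRM2B, a subunit of ribonucleotide reductase, was at 6.81 FPKM untreated and 28.7 FPKM after DAC. DDB2 was at 28.3 and 59.8 FPKM, ERCC1, part of the nuclease that cuts out damaged strands, at 11.5 and 28.6 FPKM, and ERCC6, which couples repair to transcription, at 3.69 and 9.97 FPKM. POLB, the polymerase of base excision repair, was at 13.1 and 37.2 FPKM, OGG1 NM_016819, an oxidised guanine glycosylase transcript, at 3.38 and 8.68 FPKM, E2F7, a repressor among the E2F factors, at 4.06 and 11.8 FPKM, and CDC25A, a phosphatase that drives entry into S phase, at 6.47 and 14.8 FPKM.

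The same transcripts were not alike in MDA-MB-231. DDB2 was at 9.20 and 17.4 FPKM and OGG1 NM_016819 at 6.73 and 15.3 FPKM, whereas RRM2B was at 9.75 and 11.7 FPKM, E2F7 at 23.5 and 18.7 FPKM, and CDC25A at 16.1 and 20.1 FPKM. LIG4 NM_206937, the end joining entry, was at 1.29 and 3.11 FPKM in HMLER and at 7.67 and 4.01 FPKM in MDA-MB-231. By list, the HMLER entries were 4 of 16 S-phase and nucleotide supply genes, 3 of 13 nucleotide excision genes, 2 of 14 base excision genes, 3 of 40 replication factors, 1 of 7 end joining genes and 1 of 10 checkpoint genes, and none came from the other Fanconi, recombination or mismatch lists.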
